A study of Mus musculus with 3 samples.

Results

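Tumour necrosis factor (TNF), its receptors and the genes that NF-kB switches on to carry or to stop the response were followed by name through the cell classes of the mouse cornea and limbus. The set has 10 members of the 32285 genes in the tables, chosen by symbol: the ligand gene Tnf, the receptor genes Tnfrsf1a and Tnfrsf1b, the induced genes Icam1, Tnfaip2 and Sod2, and the inhibitor or feedback genes Nfkbia, Tnfaip3, Bcl3 and Nfkbiz. All 10 were found once each. The tissue came from wild-type mice, 1 droplet library per group and 3 libraries in all: uninjured, injured with nitrogen mustard (NM, an alkylating agent) and given saline, and injured with NM and given losartan (a blocker of the angiotensin II type 1 receptor). Not given in the sources used here were strain, age, sex, the number of mice or eyes pooled, how much NM was applied, how and at which dose losartan was given, and the time after injury. Anterior segments freed of lens, retina, iris, trabecular tissue and most conjunctiva were digested to single cells with liberase and then trypsin. With 1 library per group there is no replicate check on any difference. The 95% intervals below cover counting error only, and no p-value is given.

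In unstimulated cells NF-kB dimers are held in the cytoplasm by IkB proteins. TNF binding to its receptors leads to IkB breakdown, the dimers enter the nucleus, and the genes they switch on include IkBalpha itself (Nfkbia) and the ubiquitin-editing enzyme A20 (Tnfaip3), which shut the pathway down again. TNF is known to induce adhesion molecules and chemokines in corneal cells, and those genes recruit further leukocytes.

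RefSeq promoter windows on GRCm38.p6, from 250 bases before to 50 bases after the annotated start, were found for 9 of the 10 members, in 10 windows because Tnfaip3 has 2. Nfkbiz had none. Both strands were searched for the kappaB consensus, a 10-letter site bound by NF-kB dimers, and for the shorter core GGNNNTTCC, which overlaps it. The consensus lay in windows of 4 members (Tnfaip3, Sod2, Nfkbia and Bcl3), against 4.51% of 32851 promoter windows of the same length. The core lay in those of 7 members, against 18.5%, and either motif in those of 8, against 20.3%. Tnfrsf1b alone of the 9 had neither. These are matches of letters, not measured sites. Shown are the ligand, the adhesion molecule and both classical feedback inhibitors, since the results below turn on them. Each runs 5′ to 3′ on the gene's strand, and capitals mark the bases that match either motif on either strand.
Tnf (chr17:35201958-35202257, minus strand): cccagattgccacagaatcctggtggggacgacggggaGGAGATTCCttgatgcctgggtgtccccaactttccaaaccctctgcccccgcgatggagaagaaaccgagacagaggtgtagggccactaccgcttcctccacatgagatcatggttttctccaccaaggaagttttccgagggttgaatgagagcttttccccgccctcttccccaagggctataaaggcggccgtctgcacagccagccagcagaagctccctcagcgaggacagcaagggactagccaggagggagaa
Icam1 (chr9:21015690-21015989, plus strand): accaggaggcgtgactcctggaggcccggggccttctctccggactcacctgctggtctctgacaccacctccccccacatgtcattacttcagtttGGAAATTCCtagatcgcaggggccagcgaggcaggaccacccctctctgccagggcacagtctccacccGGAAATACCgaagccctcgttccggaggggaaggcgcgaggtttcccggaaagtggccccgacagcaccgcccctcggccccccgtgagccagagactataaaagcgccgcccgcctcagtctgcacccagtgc
Nfkbia (chr12:55492598-55492897, minus strand): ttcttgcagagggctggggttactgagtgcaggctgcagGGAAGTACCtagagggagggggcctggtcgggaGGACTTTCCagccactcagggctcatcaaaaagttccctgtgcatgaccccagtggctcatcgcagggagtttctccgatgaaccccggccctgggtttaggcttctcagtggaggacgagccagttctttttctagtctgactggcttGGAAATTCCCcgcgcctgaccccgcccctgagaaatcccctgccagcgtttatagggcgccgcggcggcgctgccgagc
Tnfaip3 (chr10:19015361-19015660, minus strand): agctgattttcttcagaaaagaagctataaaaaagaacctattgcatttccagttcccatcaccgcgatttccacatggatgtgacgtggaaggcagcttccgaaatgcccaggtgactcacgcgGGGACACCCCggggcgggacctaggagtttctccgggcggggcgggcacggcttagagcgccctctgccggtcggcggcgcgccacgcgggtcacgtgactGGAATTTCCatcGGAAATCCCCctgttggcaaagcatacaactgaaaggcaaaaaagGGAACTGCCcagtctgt

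After filtering, 11233 uninjured, 5800 saline and 4919 losartan cells were kept, with medians of 11286, 4097 and 5985 unique molecular identifiers (UMIs) per cell. The libraries shared between 4 and 22 cell barcodes in pairs. Clusters were built without the 10 members and named "-like" from marker lists. Epithelial-like cells numbered 7694, 1137 and 1948 in the uninjured, saline and losartan libraries, stromal fibroblast-like cells 431, 697 and 703, and neutrophil-like cells 1, 3002 and 1384. There were 658 and 374 macrophage or monocyte-like and 89 and 61 dendritic-like cells in the saline and losartan libraries, and 11 and 0 in the uninjured one. Cluster 0, one of the pair of neutrophil-like clusters, had no neutrophil marker among its 10 leading genes and 1 epithelial marker (Lcn2), so clusters 0 and 1 are compared by number. The epithelial-like clusters 9, 10, 12 and 20 hold nearly all injured and at most 3 uninjured epithelial cells each, so different clusters make up the class in the uninjured and injured libraries. The stroma likewise sits in different clusters, named below. Clusters mostly of 1 library may be that library and not a cell type. Levels are UMIs summed over a class and given as CPM, the field's usual scaling to one fixed total per class, with exact Poisson intervals.

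Most Tnf UMIs lay in leukocytes in both injured libraries. Over the whole library it stood at 1.25 CPM without injury, 622 with saline and 88.3 with losartan (178, 42609 and 7451 UMIs). Neutrophil-like cells held 92.8% of the saline library's Tnf UMIs and 82.1% of the losartan library's, though they gave 17.3% and 4.33% of all UMIs. The library totals therefore move with the number of neutrophil-like cells captured and with the Tnf level in those cells, given below. Fewer cells of a type and less RNA per cell cannot be told apart at that scale, and the share captured also depends on how the tissue came apart.

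Gene positions below are those of GENCODE models on GRCm38. Within cluster 0, led by the chemokine genes Ccl3 and Ccl4, Tnf (the gene of the cytokine itself; ENSMUSG00000024401, chr17:35199381-35202007, minus strand) reached 3969.7 CPM (3926 to 4013) with saline and 3207 CPM (3077 to 3342) with losartan. In cluster 1, led by Lrg1, Retnlg and Cxcr2, it was 1971 CPM (1926 to 2016) and 1304 CPM (1264 to 1346). Cluster 0 exceeded cluster 1 in each library, and saline exceeded losartan in each cluster. Expression defined the clusters, and Tnf is itself among the 10 leading genes of cluster 0, so the order of the clusters is only a description. Cells with a Tnf UMI made up 85.1% (exact binomial interval 83.5 to 86.6) and 87.3% (82.6 to 91.1) of cluster 0, and 72.1% (69.1 to 74.9) and 54.8% (51.8 to 57.7) of cluster 1, in the same order. Thinned to 1500 UMIs per cell, which left out 65, 16, 12 and 39 cells, those shares were 78.9%, 83.1%, 59.6% and 47.1%. In cluster 0 the shares of cells ran against the CPM, and no order is read from them. The same thinning gave 0% of the uninjured mural-like cells and 0.1301% of the uninjured epithelial-like cells, classes of vessel wall and surface cells set here as background. Cluster 0 held 2060 saline cells but 259 losartan cells, while cluster 1 held 942 and 1125.

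Macrophage or monocyte-like cells carried 219.9 CPM (211 to 229) of Tnf with saline and 182 CPM (169 to 195) with losartan, and dendritic-like cells 82.9 CPM (69.8 to 97.7) and 78.1 CPM (61.1 to 98.4). The dendritic intervals overlapped and the macrophage ones did not. Mural-like cells had 0 Tnf UMIs in 86 uninjured cells and 0 in 32 losartan cells, which allows up to 7.83 and 8.63 CPM. Vascular endothelial-like cells also had 0 and 0. The 11 uninjured macrophage-like cells held 16 UMIs of Tnf, too few cells for a level. The order of Tnf levels was neutrophil cluster 0, cluster 1, macrophages, dendritic cells, saline stroma, the injured epithelium, and then the other classes. The level in saline stroma, 18.9 CPM (13.6 to 25.5), overlapped that in saline epithelium, 13.9 CPM (12.8 to 15.1).

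**Figure D1:**
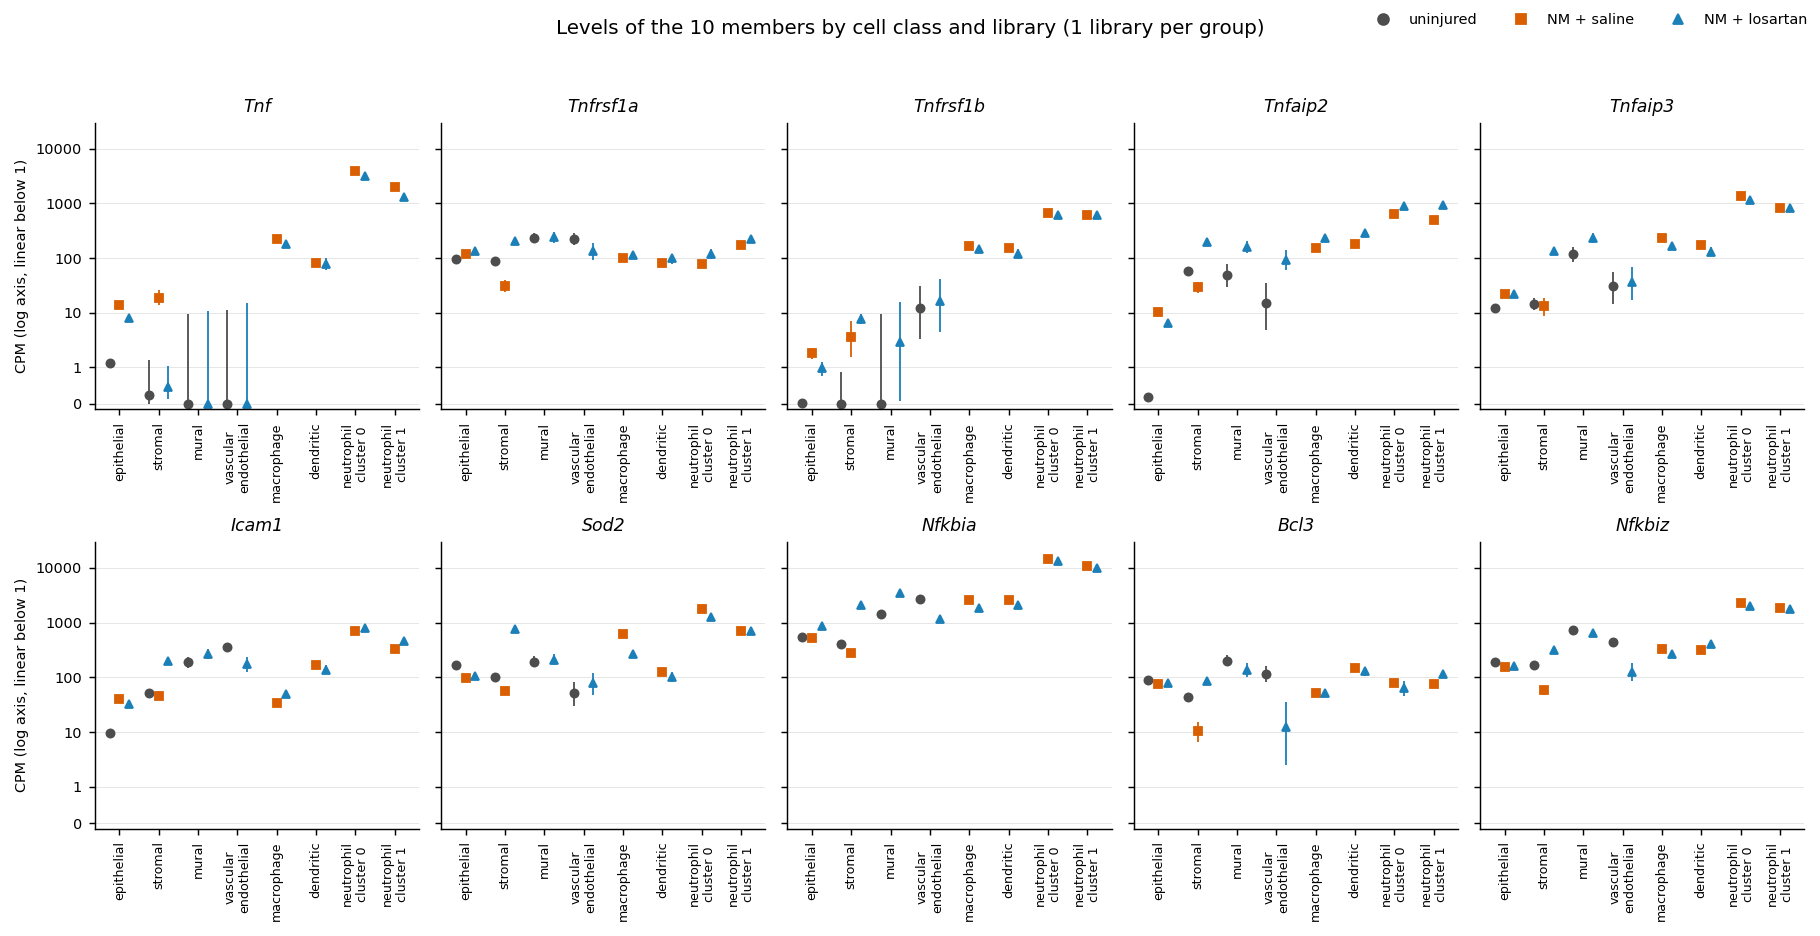
Levels of the 10 members (CPM on a log axis that is linear below 1) in 8 cell classes or clusters, for the uninjured (circles), saline (squares) and losartan (triangles) libraries, with exact Poisson 95% bars; classes under 20 cells in a library are not drawn. Tnf and Tnfrsf1b separate leukocytes from the other classes, while the leukocyte levels of Tnfrsf1a and Bcl3 lie among those of the other classes.

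Tnf signal outside leukocytes was set against neutrophil markers counted in the same cells, since free RNA from lysed neutrophils would carry both. As a percent of its neutrophil level in the same library, Tnf in saline stroma stood at 0.567% (0.408 to 0.766), and the 15 neutrophil markers had a median of 0.595% and a range of 0 to 1.22% there. The 42 Tnf UMIs of saline stroma thus lay within the range of the markers, and the part of free RNA in them was not tested. In losartan stroma Tnf stood at 0.0272% (0.00884 to 0.0636) against a marker median of 0.0609%. In epithelial-like cells the percent was 0.418% (0.384 to 0.454) with saline, against a marker median of 0.156% and highest marker of 2.44%. It was 0.473% (0.4304 to 0.5197) with losartan, against 0.0451% and 0.932%. Epithelial Tnf was thus above the median marker and below the highest one in both libraries, and the part of free RNA in it was not tested further. Cluster 10, the epithelial cluster led by Sprr2f, Ltf and Krt19, had the highest epithelial level, 23.6 CPM (21.5 to 25.9) with saline and 14.8 CPM (13.4 to 16.3) with losartan, or 0.708% and 0.884% of the neutrophil level against marker medians of 0.144% and 0.0399%. A small number of cells held much of it: 15 of 1137 saline and 26 of 1948 losartan epithelial-like cells accounted for 50% of the class's Tnf UMIs. The value without the 5 top cells is given below.

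**Figure D2:**
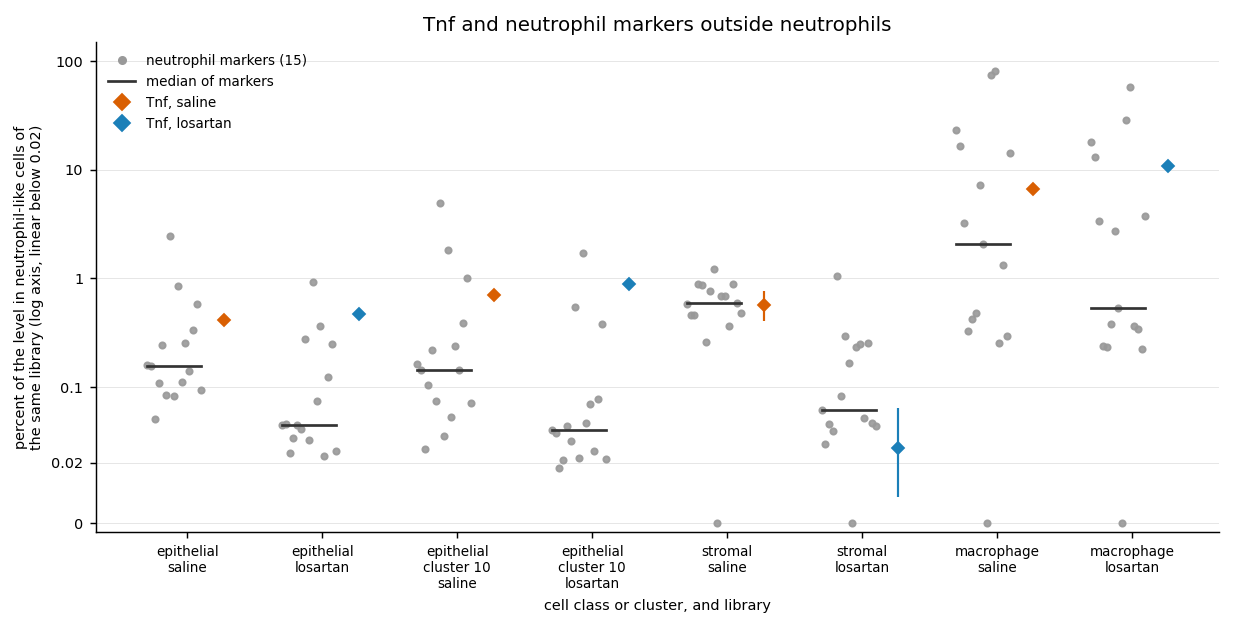
Level of Tnf (diamonds, with 95% bars) and of 15 neutrophil markers (grey points, line at their median) outside neutrophils, as a percent of the neutrophil-like level of the same library, on a log axis that is linear below 0.02. Tnf lies among the markers in saline stroma (0.567%) and above their median in the epithelium and in macrophages.

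The receptors divided by cell class. Tnfrsf1a, which encodes the death-domain receptor TNFR1 (ENSMUSG00000030341, chr6:125349362-125362484, plus strand), had UMIs in every class. Its level in epithelial-like cells was 97.9, 120.3 and 134 CPM in the uninjured, saline and losartan libraries. In mural-like cells it was 238 and 239 CPM in the uninjured and losartan libraries, with intervals of 191 to 292 and 190.2 to 296. Over classes with 50 or more cells, uninjured mural-like cells had the highest Tnfrsf1a level and saline stroma the lowest, 31.05 CPM (24.2 to 39.3). The highest level rested on 91 UMIs. Its interval overlapped those of losartan cluster 1, 221 CPM (204 to 239), and losartan stroma, 205 CPM (197 to 214). From 120.3 CPM in saline epithelium down to that lowest level, each neighbour in the order overlapped the next.

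Tnfrsf1b, which encodes TNFR2, the receptor without a death domain (ENSMUSG00000028599, chr4:145213463-145246870, minus strand), was at 678 and 623 CPM in cluster 0 and 624 and 604 in cluster 1 (saline and losartan). It was 166 and 147 CPM in macrophage-like and 155 and 119 in dendritic-like cells. In contrast, 7694 uninjured epithelial-like cells held 3 UMIs, 431 uninjured stromal cells 0 and 86 mural cells 0. Endothelial-like cells carried 4 UMIs without injury (12.2 CPM, 3.31 to 31.1) and 4 with losartan. The saline and losartan epithelium reached 1.85 and 0.995 CPM, 0.279% and 0.164% of the neutrophil level, inside the range of the neutrophil markers. Of all Tnfrsf1b UMIs, 78.96% (saline) and 71.02% (losartan) came from neutrophil-like cells, and the losartan stroma's 86 UMIs were all in cluster 19.

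Among the induced genes, Icam1 encodes the adhesion molecule that leukocytes grip (ENSMUSG00000037405, chr9:21015985-21028817, plus strand). It was 701 and 793 CPM in cluster 0 and 333 and 466 in cluster 1. Vascular endothelial-like cells, the wall that leukocytes cross, had 353 CPM (291 to 423) without injury and 176 CPM (127 to 236) with losartan, in 41 and 25 cells. Macrophage-like cells were low at 34.4 and 48.6 CPM. The antisense gene Gm47079 overlaps Icam1, and whether the counting used strand was not given in the sources used here.

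Tnfaip2, a TNF-induced gene of vessel and myeloid cells (ENSMUSG00000021281, chr12:111442469-111455018, plus strand), was higher with losartan than with saline in each leukocyte class: 892 against 637 CPM in cluster 0, 949 against 487 in cluster 1, 229.6 against 151 in macrophages and 293 against 179 in dendritic cells. None of these 4 pairs of intervals overlapped. It was nearly absent from the uninjured epithelium, at 23 UMIs in 7694 cells (0.179 CPM). Gm40578 overlaps it on the opposite strand.

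Sod2 encodes the mitochondrial superoxide dismutase (ENSMUSG00000006818, chr17:13006846-13040063, plus strand). Cluster 0 had 1740.4 and 1264 CPM and cluster 1 699 and 706, with saline and losartan. Macrophage-like cells had 613 with saline and 266 with losartan, and losartan stroma 758. Uninjured epithelium, at 166 CPM, lay above the saline and losartan epithelium at 98.8 and 108.

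Of the inhibitors, Nfkbia encodes IkBalpha (ENSMUSG00000021025, chr12:55489410-55492647, minus strand). Its level was 14532 and 13386 CPM in cluster 0, 11014 and 9844 in cluster 1, 2552 and 1820.0 in macrophages and 2644 and 2140.4 in dendritic cells. In each of these the saline value exceeded the losartan value by less than 1.5-fold. Losartan mural cells, at 3470.3 CPM, were above uninjured ones at 1469.6, whereas losartan endothelium, at 1172, was below uninjured endothelium at 2699.

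Tnfaip3, the gene of A20 (ENSMUSG00000019850, chr10:19000910-19015657, minus strand), was also highest in neutrophil-like cells: 1359.9 and 1163 CPM in cluster 0, 827 and 817 in cluster 1, 235 and 167 in macrophages and 173 and 131 in dendritic cells. Epithelial levels were 12.4, 22.2 and 21.7 CPM across the uninjured, saline and losartan libraries. Nfkbiz, an atypical nuclear IkB that helps induce secondary response genes (ENSMUSG00000035356, chr16:55811375-55838899, minus strand), ran from 2285 CPM in saline cluster 0 to 58.04 in saline stroma. Among uninjured classes with at least 20 cells it was highest in mural cells, 720.4 CPM (638 to 811), where the next level, 444 CPM (375 to 522) in endothelium, did not overlap it.

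Bcl3, a nuclear IkB that pairs with p50 and p52 dimers (ENSMUSG00000053175, chr7:19808462-19822770, minus strand), did not separate leukocytes from other cells. The highest level, 201 CPM (159 to 251) in uninjured mural cells, overlapped the next, 149 CPM (131 to 168) in saline dendritic cells. It was 79.4 and 63.4 CPM in cluster 0, 51.5 and 52.3 in macrophages, and 90.4, 74.6 and 77.6 in the uninjured, saline and losartan epithelium. Epithelial-like cells held 63.3% of saline and 72.2% of losartan Bcl3 UMIs, close to their 59.3% and 71.5% of all UMIs. Gm16174 and Gm16175 overlap Bcl3 on the opposite strand.

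Libraries were then compared within classes. A member counts as measured if it reaches 10 CPM in 1 or both libraries of the pair, and as higher or lower when CPM + 5 differs at least 1.5-fold. Log2 ratios are on the CPM + 5 scale, which shrinks those of low genes. All comparisons share their libraries, so agreement between them is not independent.

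In the epithelium after NM and saline, Icam1, Tnfaip2 and Tnf were higher than in the uninjured epithelium and Sod2 was lower. Of 9 measured members, 4 were at least 1.5-fold higher against a background of 20.7% of 8709 measured genes, and 1 was lower against 16.0%. Their median log2 ratio was 0.28, and that of all measured genes 0.06. Icam1 went from 9.57 to 39.95 CPM, a ratio of 4.18 (95% interval 3.88 to 4.502) and a log2 ratio of 1.63. Tnfaip2 went from 0.179 to 10.2 CPM (log2 ratio 1.55), Tnf from 1.22 to 13.9 (1.61) and Tnfaip3 from 12.4 to 22.2 (0.64). Sod2 changed from 166 to 98.8 CPM (−0.72), and with each cell thinned to 1500 UMIs its log2 ratio was −0.56, under 1.5-fold. Tnfrsf1a, Nfkbia, Bcl3 and Nfkbiz differed by less than 1.5-fold, with log2 ratios from −0.29 to 0.28. Leaving out, for each gene, the 5 cells of each library that held the most of its UMIs, 1 member (Icam1) was still counted, since Tnf and Tnfaip2 then lay under 10 CPM and Tnfaip3 under 1.5-fold. Neutrophil markers summed to 6.24, 186 and 75.7 CPM in uninjured, saline and losartan epithelium, with 10, 15 and 15 of 15 detected. In percent of the neutrophil level, Tnfaip2 was at 1.73% and Icam1 at 6.85% in saline epithelium, against a marker median of 0.156% and a highest marker of 2.44%. Tnfaip2 thus lay above the median marker and below the highest one, and Icam1 lay above the highest. The part of free RNA in these levels was not tested.

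Related genes differed by group in that comparison. Of the induced target list, 8 of 11 measured genes were higher and 2 lower (median log2 ratio 2.06). Cxcl2, a neutrophil chemokine, went from 0.624 to 140.3 CPM, Ccl4 from 0.0312 to 25.1 and Ccl3 from 0.007797 to 23.95, while Irf1 and Gadd45b were lower. Cxcl2, Ccl3 and Ccl4 are among the 10 leading genes of neutrophil cluster 0, and the part of free RNA in their epithelial levels was not tested. Of the receptor complex and adaptors, 3 of 15 were higher, among them the necroptosis effector Mlkl (3.602 to 17.2 CPM) and the adaptor Tradd (21.1 to 46.1), and 2 were lower. Of 10 NF-kB subunit and kinase genes, 0 were higher and 2 lower, with the subunit gene Rel at 173 and 68.5 CPM. Of other TNF superfamily genes 5 of 7 were higher, led by Tnfrsf12a, the TWEAK receptor (68.7 to 308 CPM). Of the other inhibitors 4 of 13 were higher, led by Tnip3 (0.8498 to 12.01), and 2 were lower. The list of immediate early and dissociation genes, which digestion is known to induce, had 0 higher and 10 lower of 15 in the same cells: Fos was 2009 CPM without injury and 629 with saline, and Atf3 1405 and 323. The part of digestion in the members' levels was not tested.

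With losartan, 1 member passed 1.5-fold against saline in the epithelium. Nfkbia was at 543, 514 and 882 CPM in the uninjured, saline and losartan libraries, a losartan to saline ratio of 1.72 (95% interval 1.69 to 1.74) and a log2 ratio of 0.77. It was the 1 of 9 measured members at least 1.5-fold higher (background 2.07% of 8125 genes), and 0 were lower (5.78%). The difference was also present within cluster 9 (454 to 868 CPM) and cluster 10 (595 to 931), and with doublets kept it was 0.54, under 1.5-fold. Nfkbia also passed 1.5-fold within cluster 12 but not within cluster 20. The other 8 had log2 ratios from −0.55 (Tnf) to 0.15 (Tnfrsf1a). Of 15 immediate early genes 0 were higher and 0 lower in this pair. Among related genes, Ptgs2 (cyclooxygenase 2) was higher with losartan at 51.6 against 24.99 CPM, and Ccl3 lower at 2.34 against 23.95. Ccl3 leads neutrophil cluster 0, and the neutrophil marker sum was 75.7 against 186 CPM. The part of free RNA in that difference was not tested. Against the uninjured epithelium, losartan had 3 of 7 measured members higher (Icam1 at 1.35, Nfkbia at 0.69 and Tnfaip3 at 0.62) and 1 lower (Sod2 at −0.60), against 15.6% and 18.3% of 8470 genes.

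**Figure D3:**
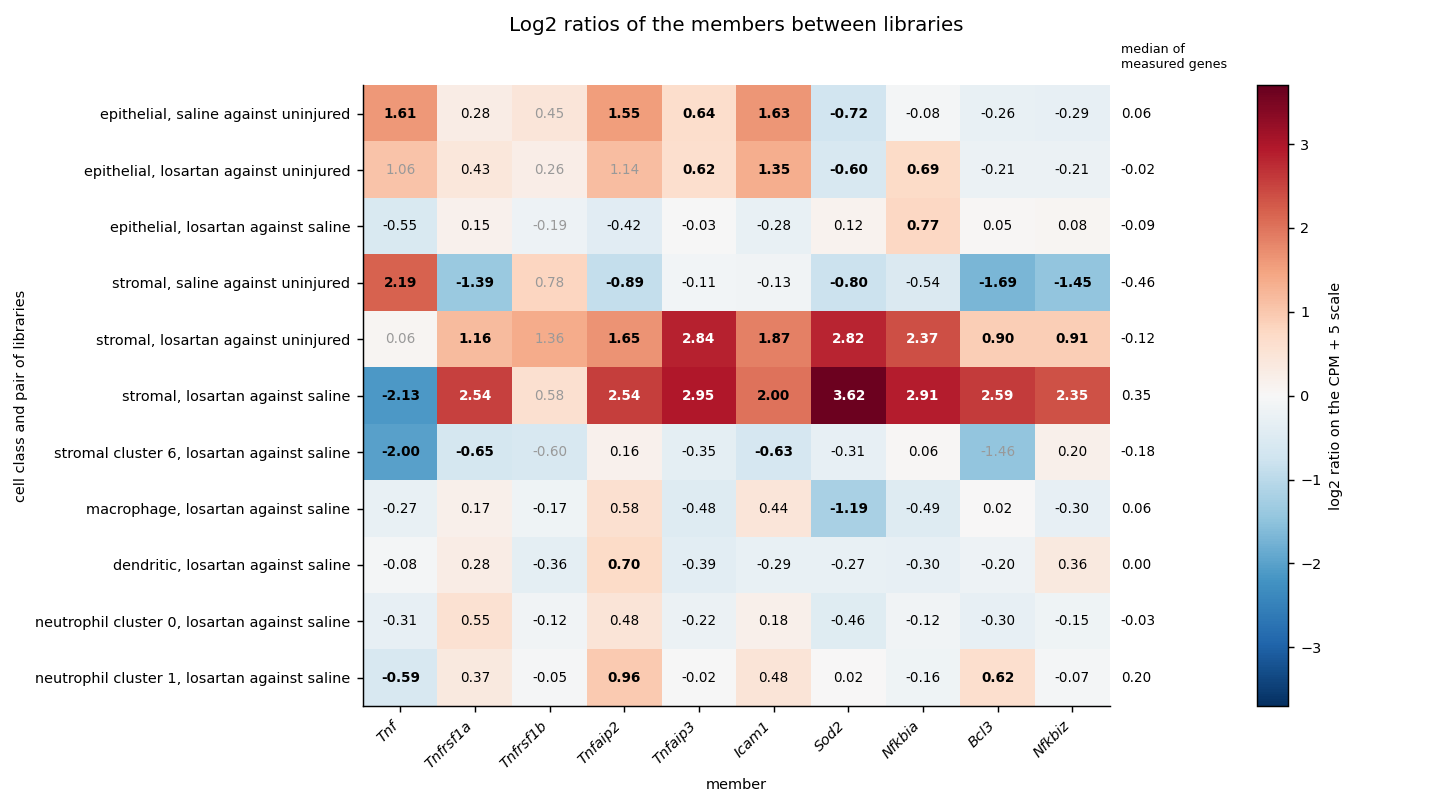
Log2 ratio (CPM + 5) of each member in 11 comparisons, red for higher in the first-named library; bold numbers are at least 1.5-fold and at 10 CPM or more in 1 of the libraries, grey numbers are below 10 CPM in both, and the right-hand column is the median of all measured genes. The row for losartan against saline stroma is red for 8 members, and the row for cluster 6 alone is not.

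The uninjured epithelium was itself uneven, and its clusters are described without any test because expression defined them. Nfkbia ran from 97.5 CPM in cluster 8 and 138 in cluster 2 (led by Wnt3a and Frem2) to 1142 in cluster 11 (led by Asprv1, Krt78 and Muc4, genes of differentiated surface cells). Bcl3 ran from 14.2 and 18.8 CPM in the same low clusters to 160.3 in cluster 3 and 161 in cluster 15. Cluster 3 was led by the stress genes Atf3, Ccn1 and Dnajb1, and its Fos level was 3570.2 CPM. Fos was 2550.5 CPM in cluster 15 and 1821 in cluster 11, against 916 in cluster 2 and 407 in cluster 8. The clusters low in Nfkbia and Bcl3 were thus also lowest in Fos, and the part of digestion in this was not tested.

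Icam1 followed another pattern. It was at 96.9 CPM (88.3 to 106) in cluster 16, led by Serpinb3a and Gpha2, the latter a gene of limbal basal cells, and at 0.419 CPM in the surface-type cluster 11. The other uninjured epithelial clusters lay between 1.76 and 15.1 CPM. Tnfaip2 was also highest in cluster 16, at 3.08 CPM (1.72 to 5.08). Sod2 was highest in clusters 15 and 11, at 232 and 226 CPM, and lowest in the cycling cluster 13, at 104. Tnf was highest in cluster 11, at 5.11 CPM (4.25 to 6.105), in a library with 1 neutrophil-like cell. That was 122 of the 156 Tnf UMIs of uninjured epithelium, in 57 cells.

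Among the epithelial clusters after injury, Icam1 was highest in cluster 20, led by Kcnq5 and Grip1, at 92.8 CPM (78.1 to 109) with saline, an interval that overlapped that of uninjured cluster 16, and 68.3 CPM (57.8 to 80.1) with losartan. It was 59.1 and 45.6 CPM in cluster 9 (led by Sncg and Col18a1) with saline and losartan, and 18 and 14.9 in cluster 10. Bcl3 was reversed, at 38.2 and 41.9 in cluster 9 and 115 and 121 in cluster 10, and Nfkbiz followed Bcl3 (114 and 105 against 197 and 225). Tnfaip3 was also highest in cluster 20, at 59.5 CPM (47.9 to 73) with saline and 38.7 CPM (30.9 to 47.8) with losartan.

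**Figure D4:**
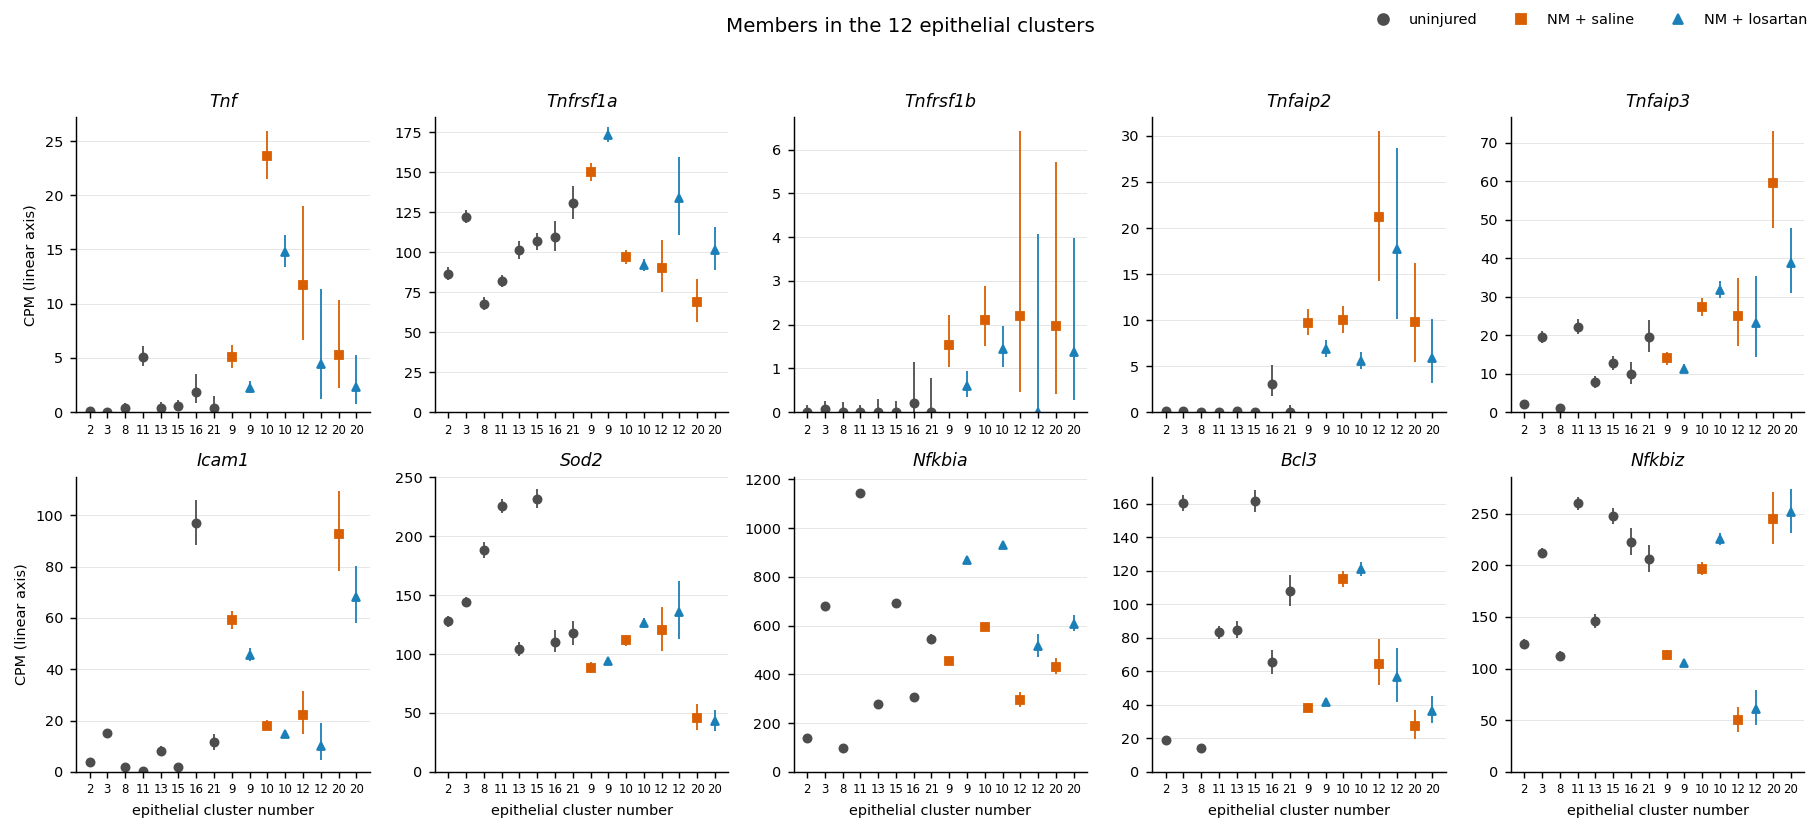
Levels of the members (CPM, linear axes that start at 0) in the 12 epithelial-like clusters by library, with exact Poisson 95% bars. Nfkbia is highest in uninjured cluster 11 (1142 CPM). It is at least 1.5-fold higher with losartan than saline in clusters 9, 10 and 12, and higher by less than 1.5-fold in cluster 20. Among uninjured clusters Icam1 is highest in cluster 16 (96.9 CPM), and the bar of saline cluster 20 (92.8 CPM) overlaps it.

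Among the classes compared, the largest differences between saline and losartan lay in the stroma. Pooled stromal fibroblast-like cells had 8 of 9 measured members at least 1.5-fold higher with losartan than with saline (background 38.3% of 9449 genes) and 1, Tnf, lower (18.3%). The members' median log2 ratio was 2.54, against 0.35 for all measured genes. Sod2 was at 103, 57.1 and 758 CPM in the uninjured, saline and losartan stroma, a losartan to saline ratio of 13.3 (95% interval 11.1 to 15.9). Nfkbia was at 403, 276 and 2113 CPM, with a ratio of 7.65 (7.06 to 8.299). Tnfaip3, at 14.5, 13.05 and 134, had 10.3 (7.14 to 15.4). For these 3 genes the losartan level stood above both other libraries, with no overlap of intervals.

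Tnfrsf1a, Icam1, Tnfaip2, Bcl3 and Nfkbiz had the same order, with losartan to saline ratios of 6.604 (5.197 to 8.52), 4.33 (3.55 to 5.33), 6.66 (5.205 to 8.66), 8.43 (5.59 to 13.4) and 5.47 (4.59 to 6.57). Against the uninjured stroma, losartan was higher in 8 of 8 measured members (16.3% of 9402 genes), from 0.90 for Bcl3 to 2.84 for Tnfaip3, and lower in 0 (22.7%). Saline stroma was lower than uninjured stroma in 5 of 9 (Bcl3 −1.69, Nfkbiz −1.45, Tnfrsf1a −1.39, Tnfaip2 −0.89 and Sod2 −0.80), but 41.1% of 9681 measured genes were lower too and their median was −0.46. The 1 member higher there was Tnf (background 12.7%), with 42 UMIs in saline against 1 in uninjured stroma. Macrophage markers summed to 768, 1913 and 252 CPM in uninjured, saline and losartan stroma and neutrophil markers to 28.4, 296 and 92.5.

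These pooled differences follow the clusters. Cluster 19, led by Mmp3, Serpina3n and Timp1, held 365 losartan, 11 saline and 1 uninjured cells. Cluster 18, led by the keratocyte gene Kera, held 373 uninjured, 0 saline and 24 losartan cells. The shallow cluster 6 held 57, 686 and 314 cells from the uninjured, saline and losartan libraries, with medians of 1559, 2737 and 2178 UMIs per cell against 26720.0 in losartan cluster 19. In cluster 19 Nfkbia reached 2278 CPM (2249 to 2308), Sod2 825 CPM (808 to 844), Icam1 216 CPM (207 to 225), Tnfaip2 212 CPM (203 to 221) and Tnfaip3 147 CPM (139.7 to 155), with Tnf at 0.301 CPM (3 UMIs). Its Sod2 level was 101% of that in losartan neutrophils, while its neutrophil markers had a median of 0.0439%, with Ly6g at 0.

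Within cluster 6, the 1 cluster with at least 20 stromal cells in both injured libraries, the difference was not seen. The 11 saline cells of cluster 19 are in the pooled saline values, which is why pooled Nfkbia lies above its cluster 6 value. These 11 cells gave 280183 of the 2222581 UMIs of pooled saline stroma. Of its 69 Tnfrsf1a and 103 Icam1 UMIs, cluster 6 held 27 and 60. The pooled saline levels and ratios thus lean on few cells, too few for a comparison within cluster 19. Of 8 measured members in cluster 6, 0 were higher with losartan than saline (12.0% of 8226 genes) and 3 were lower (23.6%): Tnf, Tnfrsf1a and Icam1. Nfkbia was at 161 CPM (143 to 179) with saline and 167 CPM (139 to 200.1) with losartan, overlapping levels, and Sod2 at 44.8 CPM (35.9 to 55.2) and 35.1 CPM (22.7 to 51.9). The last 2 rest on few counts: 27 and 5 UMIs for Tnfrsf1a and 60 and 13 for Icam1, whose ratio intervals include 1. Bcl3 had 0 UMIs in the 314 losartan cells of cluster 6 and 17 in the 686 saline cells. Saline against uninjured cells of cluster 6 gave 2 members higher (17.6% of 9390 genes) and 5 lower (59.0%), with 57 uninjured cells. The 24 losartan cells of cluster 18 had 1187 CPM (1064 to 1319.8) of Nfkbia, 202 CPM (154 to 262) of Sod2 and 126 CPM (88.01 to 174) of Icam1, each above the 410.5, 103 and 51.99 CPM of the 373 uninjured cells of that cluster, without overlap. Tnfaip3 and Tnfaip2 did not share this, at 10.47 CPM (2.16 to 30.6) and 27.9 CPM (12.1 to 55.02) against 14.9 and 58.7 CPM. Cluster 18 had 0 saline cells, so NM injury and losartan differ together in that pair and cannot be told apart. Between the injured libraries, a losartan effect and a difference in which stromal cells were captured cannot be told apart with 1 library per group.

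**Figure D5:**
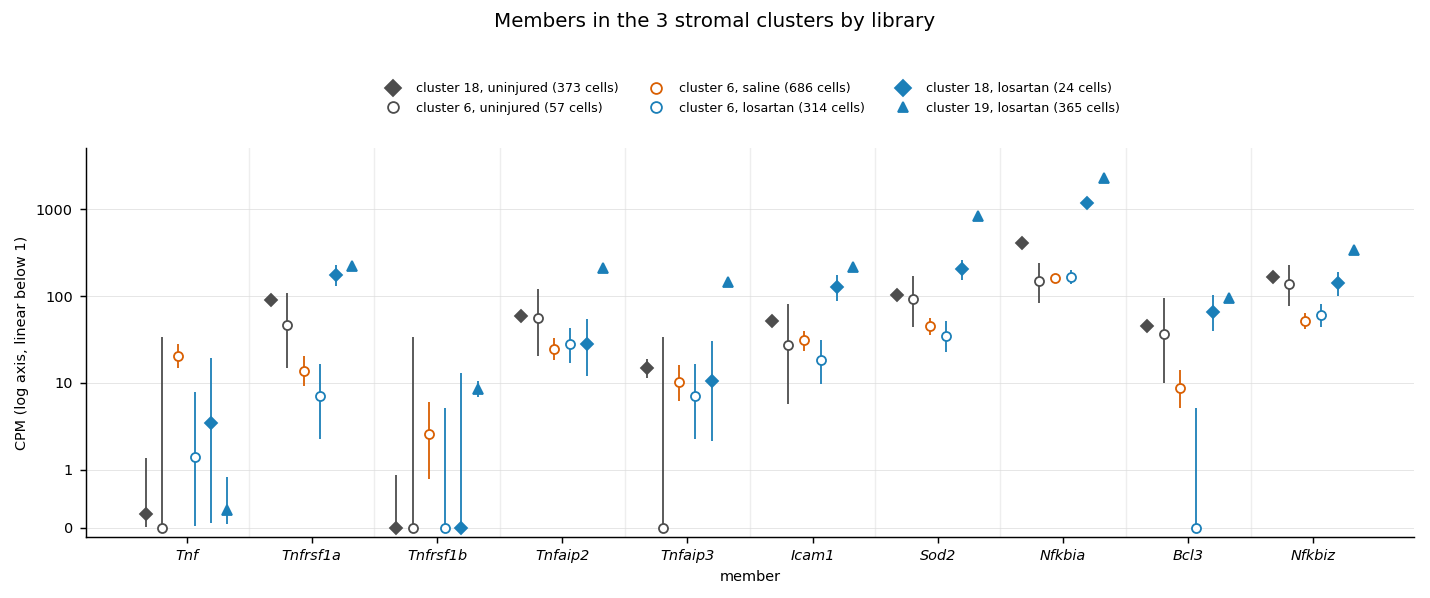
Levels of the members (CPM, log axis that is linear below 1) in stromal clusters 6 (open circles), 18 (diamonds) and 19 (triangles), coloured by library, with exact Poisson 95% bars. The losartan cells of cluster 19 are the highest stromal cells for 9 of the 10 members, Tnf being the exception, and the saline and losartan cells of cluster 6 lie near each other for Nfkbia and Nfkbiz.

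Other pathway genes were counted in the same pairs of libraries. In pooled stroma, losartan against saline, 7 of 9 NF-kB subunit and kinase genes were higher and 0 lower, led by Nfkb1, the p105 and p50 gene (127 to 1017 CPM), Rel (7.199 to 54.7) and Relb (21.6 to 83.2). Of the induced targets 10 of 17 were higher, led by the acute phase gene Saa3 (6.299 to 694 CPM) and the monocyte chemokine Ccl2 (18 to 724), and 4 were lower, among them Ccl3, Il1b and Ccl4. Of the other inhibitors 6 of 12 were higher and 0 lower, and of the receptor complex 7 and 3 of 14. The background in pooled stroma was 38.3% of 9449 measured genes higher and 18.3% lower. Within cluster 6 the counts were 0 higher and 3 lower of 8 subunit genes and 0 and 8 of 15 targets. The background there was 12.0% of genes higher and 23.6% lower. Of other superfamily genes 6 of 9 were higher and 1, Cd40, was lower in pooled stroma, and 6 of 6 were higher within cluster 6. Cd40 went from 44.5 to 13.95 CPM in pooled stroma and from 47.9 to 91.4 CPM within cluster 6. Immediate early genes were 7 higher and 2 lower of 15 in the pooled pair, with Fos at 3124, 307 and 2018 CPM in uninjured, saline and losartan stroma and Dusp1 at 438, 79.6 and 729.6. The part of digestion in the members' difference was not tested.

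In macrophage or monocyte-like cells 1 of 10 measured members was at least 1.5-fold different between losartan and saline. Sod2 was lower, 266 against 613 CPM, with a log2 ratio of −1.19. The saline to losartan ratio was 2.301 (2.16 to 2.45), and 4.93% of 7912 measured genes were lower. No member was higher (6.37%), although Tnfaip2 was close at 0.58. Tnf, Tnfaip3, Nfkbia, Nfkbiz and Tnfrsf1b had log2 ratios from −0.49 to −0.17. Of the induced targets 9 of 21 were lower and 3 higher, with the nitric oxide synthase Nos2 at 78.5 and 1.64 CPM with saline and losartan, Lcn2 at 42.3 and 3.29 and Ptgs2 at 251 and 96.7. Of the receptor complex 0 of 17 and of the subunits 0 of 10 differed. Neutrophil markers summed to 3105 and 2033 CPM in these cells, with 14 of 15 detected and Ly6g at 0 in both libraries. They were 6.72% and 3.96% of the neutrophil sum, where Sod2 stood at 43.5% and 32.7% of its neutrophil level. The marker median was 2.07% with saline and 0.535% with losartan, and the highest single marker stood at 81.5% and 57.5%. Sod2 thus lay above the median marker and below the highest one in both libraries. The part of neutrophil RNA in it was not tested.

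Dendritic-like cells, with 89 and 61 cells, had Tnfaip2 higher with losartan (log2 ratio 0.70) and no other member past 1.5-fold, against 11.9% higher and 12.7% lower of 7560 genes. In neutrophil cluster 0, 0 members were higher and 0 lower (10.0% and 11.2% of 6335 genes), with log2 ratios from −0.46 for Sod2 to 0.55 for Tnfrsf1a. In cluster 1, Tnfaip2 (0.96) and Bcl3 (0.62) were higher (20.3%) and Tnf (−0.59) lower (4.28% of 6008 genes). Tnf there had a saline to losartan ratio of 1.51 (1.45 to 1.57) and Sod2 had a log2 ratio of 0.02. Pooled, the neutrophil-like cells had 2 members higher with losartan (12.6% of 6182 genes), Tnfaip2 and Tnfrsf1a, and 2 lower (6.84%), Tnf at 3334 and 1674 CPM and Sod2 at 1409 and 815, a wider gap than in either cluster. Cluster 0, the higher in both genes, made up 2060 of 3002 saline and 259 of 1384 losartan neutrophil-like cells.

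The vessel classes had 0 mural-like and 15 endothelial-like saline cells, too few for a saline comparison. NM injury and losartan thus differ together in the pairs below and cannot be told apart. Losartan mural cells had 3 members higher than uninjured ones (25.5% of 9669 genes): Tnfaip2 (1.61), Nfkbia (1.24) and Tnfaip3 (0.96), and 0 lower (21.8%). In these 32 losartan cells 6 held 50% of the Nfkbia UMIs and 3 held 50% of the Tnfaip3 UMIs. Losartan endothelium had Tnfaip2 higher (40.0%) and Bcl3, Nfkbiz, Nfkbia, Icam1 and Tnfrsf1a lower (21.7% of 9748 genes), in 25 against 41 cells. Icam1 there was at 176 CPM (127 to 236) against 353 CPM (291 to 423), intervals that did not overlap. Tnfaip2 was thus higher in the losartan than in the uninjured cells of both vessel classes, on few UMIs. Mural cells held 19 uninjured and 56 losartan UMIs of Tnfaip2, and endothelium 5 and 23. Immediate early genes were 0 higher and 13 lower of 15 in mural cells, and 1 higher and 11 lower of 15 in endothelium. The part of digestion in the members' values was not tested. Schwann-like cells, with 26 saline cells, had at most 11 UMIs of any member in that library, of Nfkbia, and are not compared.

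Over the 16 pairs of class and library with at least 50 cells, the genes with the most similar pattern were listed for each member among 13317 genes. These points share libraries and depth, so the correlations are descriptions. Tnf was nearest to Il1rn (Pearson r 0.99), Ccl3 (0.99) and Clec4e (0.99), and Tnfrsf1b to Ccr1, Ptafr and Olr1 (lowest 0.99). Nfkbia and Tnfaip3 were each other's nearest gene (0.98), and Nfkbiz was nearest to Pnrc1 (0.97), then Rabgef1 (0.95) and Nfkbia (0.95). Sod2 was nearest to Ier3, Saa3 and Csf3 (0.93, 0.91 and 0.91), and Icam1 to Ntng2, Pla1a and Pnrc1 (all 0.90). Tnfaip2 was nearest to Apbb1ip (0.94) and Bcl3 to Rab11b (0.89). Tnfrsf1a had the loosest match, Fam104a at 0.80.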

How the data were processed

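The authors deposited, per sample, a matrix of UMI counts per gene and cell barcode and, per the file headers, the matrices came from Cell Ranger 8.0.0. GRCm38 is the build per the submitters' processing notes. Not given in the sources used here: which annotation was used, whether introns and strand were counted, and whether doublets had been removed earlier. Groups came from the sample labels, 1 library each.

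Barcodes with at least 500 genes and at most 20% mitochondrial UMIs were kept, which removed 703, 680 and 725 barcodes of the uninjured, saline and losartan libraries. Doublets, scored against 2 simulated pairs per cell, were removed at 0.8% per 1000 barcodes (1334, 334 and 243). Counts scaled to 10000 per cell, 2000 variable genes (the 10 members left out), 30 components, 20 neighbours and Leiden resolution 0.8 gave the clusters, with no batch correction. Tools were Python 3.11.15, numpy 2.4.6, scipy 1.17.1, pandas 2.3.3, scikit-learn 1.9.0, leidenalg 0.10.2 and igraph 0.11.9. A cluster took the name of the list, of 18, that scored highest with at least 3 markers in 10% of its cells. It stayed unnamed if shallow without an own marker among its top 10 genes, or if the score gap to the next list was under 0.12, a limit set after the clusters were seen. That left out 2876, 176 and 388 cells.

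UMIs were summed per class and library and given as CPM with exact Poisson intervals; ratios have exact conditional binomial intervals at 95%, and shares Clopper-Pearson ones. A count of 0 allows up to 3 counts. Retained UMIs totalled 142385848, 68518228 and 84342070, and low members are limited by counting. The members and lists were chosen with earlier results of these data known. Named were all members, of each of 6 pathway lists up to 3 genes at either end among those at least 1.5-fold different with at least 10 cells holding 50% of their UMIs, and the 3 genes most like each member. Markers and immediate early genes were named beside results. The clusters named singly (6, 12, 0 and 1) were set apart after seeing the data. The alternatives were other cell filters, no doublet removal, other scaling, resolutions, pseudocount and minimum, thinned cells, equal weights per cell and leaving out top cells.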

Additional observations from a re-analysis of the deposited data

Results flagged for a closer look

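Sod2, the mitochondrial superoxide dismutase gene, had opposite directions in different classes of the same pair of libraries. Losartan against saline, its log2 ratio was 3.62 in stromal fibroblast-like cells and −1.19 in macrophage or monocyte-like cells. Losartan against uninjured, it was 2.82 in stromal and −0.60 in epithelial-like cells. Tnfaip2, a TNF-induced gene, was at 1.55 in epithelial-like and −0.89 in stromal cells, saline against uninjured. With 1 library per group the differences between classes were not tested. The stromal values pool clusters of unlike depth, and within cluster 6 the losartan to saline log2 ratio of Sod2 was −0.31.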

How the results depend on the processing

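Over 56 single-member log2 ratios in 6 class comparisons, between 48 (cells thinned to 1500 UMIs) and 56 kept their direction under each of the other cell filters, scalings, clusterings and weights run on all of them, and at resolution 0.4, where no macrophage class was named, 46 of 46 did. With at least 200 genes per cell, 2 members were higher in saline than uninjured epithelium, 1 was lower in losartan than saline epithelium and 1 higher in losartan macrophages. With at most 10% mitochondrial UMIs, 1 was higher in losartan macrophages. With no doublet removal, losartan against saline gave 0 higher and 1 lower in epithelium, 2 lower in stroma and 1 higher in macrophages. Saline against uninjured stroma then gave 3 higher and 3 lower, with Sod2 at 0.19. Median-of-ratios scaling left 3 lower in saline than uninjured stroma. On the CPM + 1 scale, 2 were lower in losartan than saline epithelium and 1 higher in losartan macrophages. Without the minimum level, 2 were higher in saline than uninjured stroma. With thinned cells, 0 were lower in saline than uninjured epithelium and 1 was lower in losartan than saline epithelium. With each cell weighted equally, 2 were lower in losartan than saline epithelium. Without the 5 top cells of each gene, 1 was higher in saline than uninjured epithelium. The causes were not tested.

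The next settings were chosen after seeing the data. In cluster 6 alone, 2 members were higher in saline than uninjured cells, and 0 were higher and 3 lower with losartan than saline. There Tnfrsf1a was at −0.65, Tnfaip3 at −0.35, Icam1 at −0.63, Sod2 at −0.31 and Bcl3 at −1.46, opposite in sign to pooled stroma. Of these, Tnfaip3 and Sod2 differed by less than 1.5-fold, and Bcl3 lay below 10 CPM in both libraries. The ratio intervals of Tnfrsf1a and Icam1 include 1. In neutrophil cluster 0 alone, 0 were higher and 0 lower with losartan. In cluster 1 alone 1 was lower, and Sod2 was at 0.02 (0.0153 before rounding). Leaving out the shallow epithelial cluster 12 reversed none of 18 values. No paired analysis was possible because each group has 1 library. No library could be left out, for the same reason. Levels under a few CPM, as for Tnf outside leukocytes, rest on few UMIs.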

Other observations

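Some unnamed clusters also carried the members. Cluster 14, with Uchl1 and the stress gene Ddit3 among its leading genes, held 163 saline and 372 losartan cells. Its Icam1 was 231 CPM (208 to 256) with saline and 44.3 CPM (37.7 to 51.7) with losartan, and its Nfkbia 1186 CPM (1133 to 1241) and 656 CPM (629.8 to 683). Tnfaip2 ran the other way, at 39.2 CPM (30.01 to 50.4) and 84.4 CPM (75.2 to 94.5). Sod2 was 215 and 200.3 CPM, with overlapping intervals. Among the shallow uninjured clusters, the 1130 cells of cluster 5, led by Cfap43, C430049B03Rik and Herc4, had 276 CPM (261 to 292) of Bcl3 and 488 CPM (467 to 509) of Nfkbiz. Their Bcl3 and Nfkbiz levels lay above those of every named uninjured epithelial cluster, while Nfkbia, at 485 CPM, lay inside the range of those clusters. No such cluster entered a comparison.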
